A study of Mus musculus with 14 samples.

Results

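The hairpins described here are the later-registered mouse microRNAs (miRNAs), mir-1000 to mir-3999. They were taken from the authors' deposited table by name alone, and 87 of its 539 rows qualified. The table compares exosomes released by adipose tissue macrophages of obese and lean C57BL/6 mice, with 7 libraries in each group. Exosomes are small vesicles that carry miRNAs between cells. The macrophages were kept for 72 h in medium with 10% fetal bovine serum freed of exosomes, and vesicles were then spun out of the medium. The labels give no diet and no other treatment. Their age entries start at 24 weeks in every library, and the upper end steps from 26 weeks in the first obese library to 39 in the last lean one. If these entries hold, age and obesity cannot be told apart. Nothing in the labels says that each library came from a separate mouse, so the p-values measure the spread between these libraries.

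A miRNA gene is transcribed as a longer RNA that folds into a hairpin. Drosha with its partner Dgcr8 cuts the hairpin out in the nucleus, Dicer trims it, and one arm enters an Argonaute protein. Bases 2 to 8 of that mature miRNA, the seed, pair with target messenger RNAs. miRNA numbers follow the order of registration, so most hairpins above 1000 come from early deep sequencing of mouse tissues. Many of them have no counterpart outside rodents, and several lie within repeats, introns or other small RNA genes. Little is established about most of them in fat or in macrophages.

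The sequences below carry the findings of this comparison. The first group holds the 5 hairpins with an adjusted p under 0.05. The sequences are those of RefSeq (GRCm38.p6), written 5′ to 3′ with the seed in capitals.
miR-1945: uCUUCGCGgguacugucgggac
miR-1928: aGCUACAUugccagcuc
miR-1946b: gCCGGGCAgugguggcacaugcuuuu
miR-3968: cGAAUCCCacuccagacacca
miR-3470b: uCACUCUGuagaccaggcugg

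The second group holds the mature miRNAs of the 7 mir-3473 hairpins. They are shown because several of them share long stretches with miR-3473b, on one strand or the other. The deposited values of the 7 hairpins differ in sign, though the sign is determined for mir-3473a alone, as described below.
miR-3473a: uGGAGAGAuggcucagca
miR-3473b: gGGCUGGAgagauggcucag
miR-3473c: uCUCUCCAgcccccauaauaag
miR-3473d: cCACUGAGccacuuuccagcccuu
miR-3473e: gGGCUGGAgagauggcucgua
miR-3473f: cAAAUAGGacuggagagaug
miR-3473g: cAAAAGUGaggcuggggaga

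The third group pairs members with a miRNA of the other strand of the same locus, because each is nearly the reverse complement of its partner.
miR-3074-5p: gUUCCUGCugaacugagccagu
miR-24-3p: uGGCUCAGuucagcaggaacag
miR-3065-5p: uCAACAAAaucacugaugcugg
miR-338-3p: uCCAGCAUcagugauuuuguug

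RefSeq held a hairpin for 74 of the 87 rows and a mature sequence alone for 7 more. The rows mir-1957a, mir-3470a, mir-3079, mir-1946a, mir-1194 and mir-3471-2 had no match.

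The table holds no value for a single library, so depth, group means and overlap between groups are unknown here. Each row gives a fold change and a mean expression over both groups, both in log2, with t, p and an adjusted p. The direction of the fold change is not stated. A published study of such exosomes, not used as data here, described miR-155 as more abundant on the obese side. In the authors' deposited table mir-155 has a log2 fold change of 4.41, and if that account holds for these libraries positive means higher in obese. Signs are given below as deposited, and hold only relative to mir-155. Leukocyte miRNAs were present, with a mean log2 expression of 9.70 for mir-142a and 7.62 for mir-223 in the authors' deposited table. Of the 5 myeloid and general leukocyte miRNAs listed, mir-155 was called on the positive side. The miRNA mir-511 of macrophages and dendritic cells was called on the negative side at −4.70 (mean 4.17, adjusted p = 0.0148). The others, mir-146a, mir-223 and mir-142a, were at 2.11, 1.54 and −0.46 and were not called. Listed for lymphocytes were mir-181a-1, called at 2.57 (mean 12.64, adjusted p = 0.00174), and mir-150 at 0.59 (mean 3.24, adjusted p = 0.910). The epithelial mir-200b and mir-429, at means of 2.45 and 0.60, were at 2.17 and 2.30 (adjusted p = 0.276 and 0.123). In the same table the erythrocyte miRNAs mir-486a and mir-451a had means of 11.81 and 6.76. Of the adipocyte-associated miRNAs, mir-378a stood at 14.04 but mir-193b at 0.97. The endothelial mir-126a was at 6.46, the mesenchymal mir-143 and mir-145a at 5.70 and 0.22, and the liver miRNA mir-122 at 2.15. Their part in the results below was not tested.

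Later-registered hairpins were called about as often as the rest of the table. An adjusted p under 0.05 was reached by 5 of the 87, or 5.75%, against 30 of 539 rows (5.57%) in the authors' deposited table. One direction held most of them: mir-1945 was positive, where 2.04% of all rows were called, and 4 were negative, where 3.53% of all rows were. At an unadjusted p under 0.05, 18 of 87 members passed (20.7%, against 17.6% of all rows). Of these 6 were positive and 12 negative, while 8.53% and 9.09% of all rows passed on the positive and the negative side. The median log2 fold change was 0.21 over the members and 0.09 over all rows of the authors' deposited table. Positive values numbered 48 of 87. Subtracting 0.34, the median of the 180 most abundant rows, left 37 positive and 50 negative members.

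**Figure D1:**
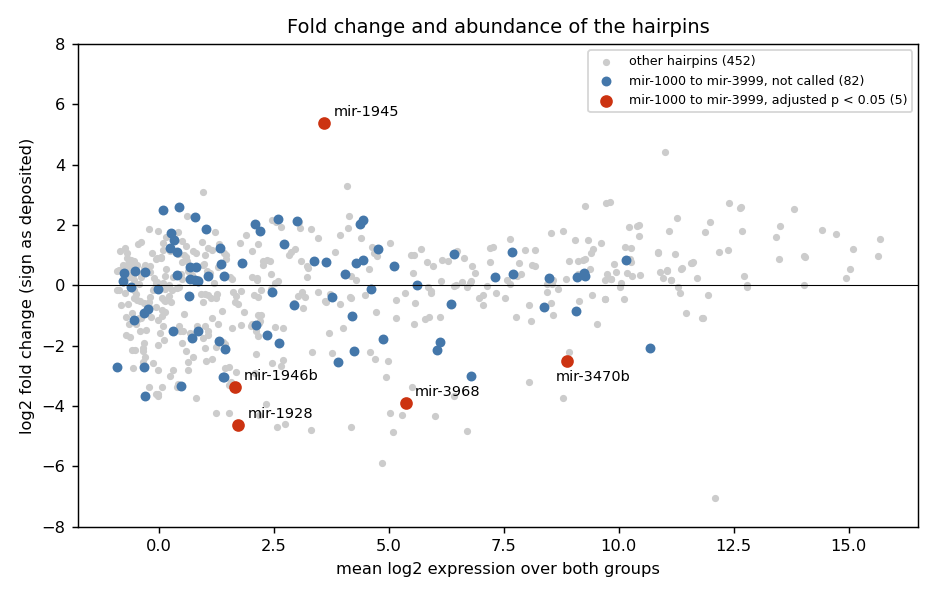
Log2 fold change (vertical axis, sign as deposited) against mean log2 expression over both groups (horizontal axis) for each hairpin of the authors' deposited table. Grey points are the 452 other hairpins, blue points the 82 members that were not called and red points the 5 with an adjusted p under 0.05. The members reach a mean of 10.67 and not the 15.69 of the most abundant hairpin.

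As cargo they were of low to middling abundance. Mean log2 expression ran from −0.91 for mir-1224 to 10.67 for mir-3535, with a median of 2.10 (2.34 over all rows) in the authors' deposited table. When all rows were split by abundance into classes of 180, 179 and 180, 30 members fell in the lowest, 38 in the middle and 19 in the highest class. Precision differed between the classes. The median standard error of a log2 fold change was 1.02 in the lowest, 1.10 in the middle and 0.76 in the highest class. The smallest |t| among the calls was 3.53, which at these errors takes a log2 fold change of 3.61, 3.88 and 2.69. No hairpin of the lowest class was called, so at this precision differences smaller than that in those 30 members were mostly not detectable.

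Of all 539 rows of the authors' deposited table, mir-1945 had the largest positive fold change. Its log2 fold change was 5.37 (SE 0.80, 95% interval 3.69 to 7.05), a 41.3-fold difference, with an adjusted p of 0.00142 by the authors' limma test. Its mean log2 expression of 3.60 was above the median of the table. RefSeq places mir-1945 (ENSMUSG00000088544.1) on GRCm38 at chromosome 16, bases 11254368 to 11254445 of the minus strand, and GENCODE M21 annotates no other gene there. The hairpin is shown whole, with the mature miRNA in capitals.
mir-1945 hairpin: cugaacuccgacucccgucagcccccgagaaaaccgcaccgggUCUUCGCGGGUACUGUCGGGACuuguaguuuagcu
None of its stretches of 20 bases occurs in a transcript of another gene, and no other row shares its seed. It had the smallest p of all 539 rows in the authors' deposited table.

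The most negative member was mir-1928, with a log2 fold change of −4.62 (SE 0.97, 95% interval −6.66 to −2.58) in the authors' deposited table (adjusted p = 0.00704). Its mean log2 expression was 1.73, so its level is low. The hairpin lies at chromosome 1, bases 74206554 to 74206620 of the minus strand, outside other annotated genes, and shares 20 bases with transcripts of 12 other genes, among them Pcyox1 and Pgap1.
mir-1928 hairpin: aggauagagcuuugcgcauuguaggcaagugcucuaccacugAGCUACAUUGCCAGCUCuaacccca
The seed GCUACAU of miR-1928 is also the seed of miR-221 and miR-222, a pair that targets the cell-cycle inhibitor Cdkn1b. miR-1928 and miR-221-3p share their first 10 bases, AGCUACAUUG. Their rows nevertheless had opposite signs, since mir-221 was at 1.72 (adjusted p = 0.123) and mir-222 at 1.82 (adjusted p = 0.0240) on the authors' deposited scale. Both were far more abundant than mir-1928, with mean log2 expression of 14.73 and 14.42.

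The hairpin mir-3968 had a log2 fold change of −3.89 (SE 0.96, 95% interval −5.90 to −1.88) in the authors' deposited table (adjusted p = 0.0218). At a mean log2 expression of 5.36 it was the most abundant called member after mir-3470b. It lies at chromosome 11, bases 115447961 to 115448060 of the minus strand, opposite the gene Trim80, and is listed as ENSMUSG00000093096.1. Like mir-1945, it shares no 20 bases with a GENCODE M21 transcript of another gene that is not a miRNA. The transfer RNA genes of RefSeq were not searched by sequence.
mir-3968 hairpin: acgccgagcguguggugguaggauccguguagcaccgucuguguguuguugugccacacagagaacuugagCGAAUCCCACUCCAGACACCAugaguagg
Its mature sequence has the 8 bases AUCCCACU in common with miR-3963. The authors' deposited table puts mir-3963 at −1.52, short of a call (adjusted p = 0.621).

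Like mir-1928, the other called members, mir-1946b and mir-3470b, share sequence with other genes. For mir-1946b the log2 fold change was −3.36 (SE 0.82, 95% interval −5.08 to −1.65) with an adjusted p of 0.0209, at a mean log2 expression of 1.66 in the authors' deposited table. Its mature sequence lies at chromosome 9, bases 21613452 to 21613477, and shares 20 bases with 12 other genes. The related mir-1946a was at −1.85 (adjusted p = 0.480). For mir-3470b the log2 fold change was −2.50 (SE 0.68, 95% interval −3.93 to −1.07) with an adjusted p of 0.0364, at the much higher mean of 8.87 in the authors' deposited table. Its mature sequence, at chromosome 16, bases 44013885 to 44013905, opposite Gramd1c, occurs whole in transcripts of 546 other genes. The related mir-3470a was at −2.16 (adjusted p = 0.258), so both members of each pair were negative.

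**Figure D2:**
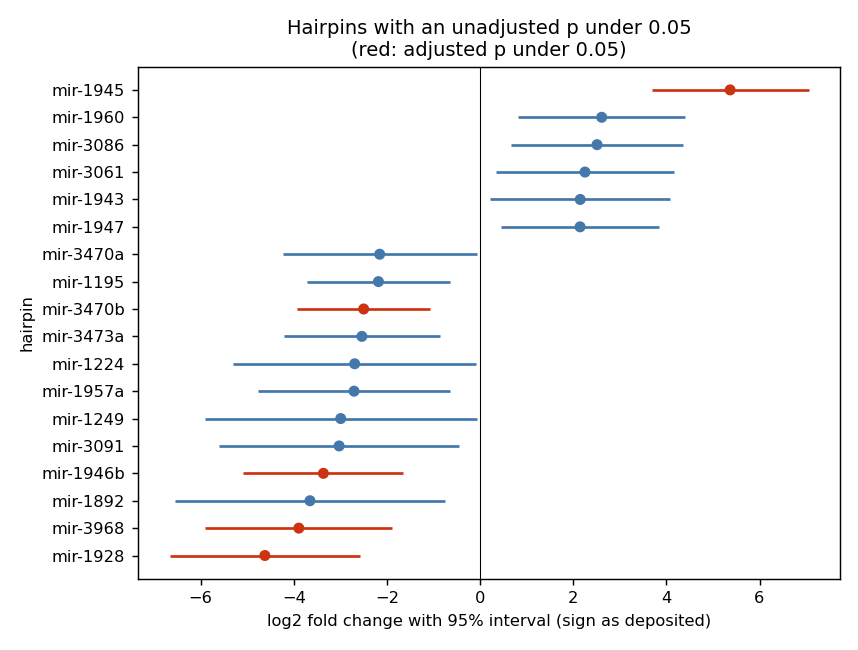
Log2 fold changes with 95% intervals (horizontal axis, sign as deposited) of the 18 members with an unadjusted p under 0.05 in the authors' deposited table, ordered by value. Red marks the 5 with an adjusted p under 0.05, and mir-1945 is the 1 red point on the positive side.

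A further 13 members had an unadjusted p under 0.05 and an adjusted p above it. On the positive side were mir-1960 at 2.61, in an intron of Hadhb, which encodes a subunit of the mitochondrial trifunctional protein of fatty acid oxidation, and mir-3086 at 2.51, in an intron of Hspa12a. Their adjusted p-values in the authors' deposited table were 0.0877 and 0.119. In the authors' deposited table mir-3061, in an untranslated exon of the phosphatase gene Ppp2ca, was at 2.25, and both mir-1943 and mir-1947 were at 2.15. These values rest on low levels for mir-1960, mir-3086 and mir-3061, with mean log2 expression of 0.43, 0.08 and 0.79, while mir-1947 and mir-1943 stood at 3.01 and 4.43. The arm miR-1943-5p has the seed AGGGAGG of miR-149-3p, whose hairpin mir-149 was called in the authors' deposited table at 3.31 (adjusted p = 0.0112). In contrast to mir-1928 and mir-222, this pair had the same sign. The values are per hairpin, so the arm behind each of them is unknown.

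On the negative side were mir-3473a (−2.54, adjusted p = 0.0717), mir-1195 (−2.18, adjusted p = 0.0969) and mir-3470a. The hairpins mir-3473a and mir-3470a are on the list of hairpins close to SINE repeats, and mir-1195 is described below. Shared sequence was not measured for mir-3470a, which had no RefSeq match. The remaining 5 were mir-1892 at −3.65, mir-3091 at −3.03, mir-1249 at −2.99, mir-1957a at −2.71 and mir-1224 at −2.69, with adjusted p-values from 0.123 to 0.261 in the authors' deposited table. Among them mir-1249 was the one with a substantial level, at a mean log2 expression of 6.78. Its 95% interval ran from −5.91 to −0.07. The hairpin mir-3091 lies in an intron of Rps21, a ribosomal protein gene, and mir-1892 in an untranslated exon of Sptssa, which encodes a subunit of serine palmitoyltransferase.

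Position and sequence sorted the 81 matched members into classes that the choice by number did not use. These classes were set after seeing the data, so their values are a description only. In GENCODE M21, 36 lie in an intron on the same strand, 27 overlap an exon, 8 lie opposite a gene and 10 between genes. Sharing of sequence was common: 25 of 81 (30.9%) have 20 bases in common with a transcript of 1 or more other genes, against 69 of 500 matched rows (13.8%). For the rows with a mature sequence alone the search covered that sequence, and for the others the whole hairpin. The 25 had a median log2 fold change of −1.03 and 16 negative values in the authors' deposited table. The 56 members without shared sequence had a median of 0.39 and 36 positive values. Over the whole table the medians were −0.55 for the 69 rows that share sequence and 0.19 for the 431 that do not. After subtracting 0.34 the members' medians were −1.37 with and 0.05 without shared sequence, with 30 of the 56 positive. Over all rows they were then −0.89 and −0.15, so the positive median of rows without shared sequence was lost. Subtracting the same value from every row cannot change the distance between the medians.

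**Figure D3:**
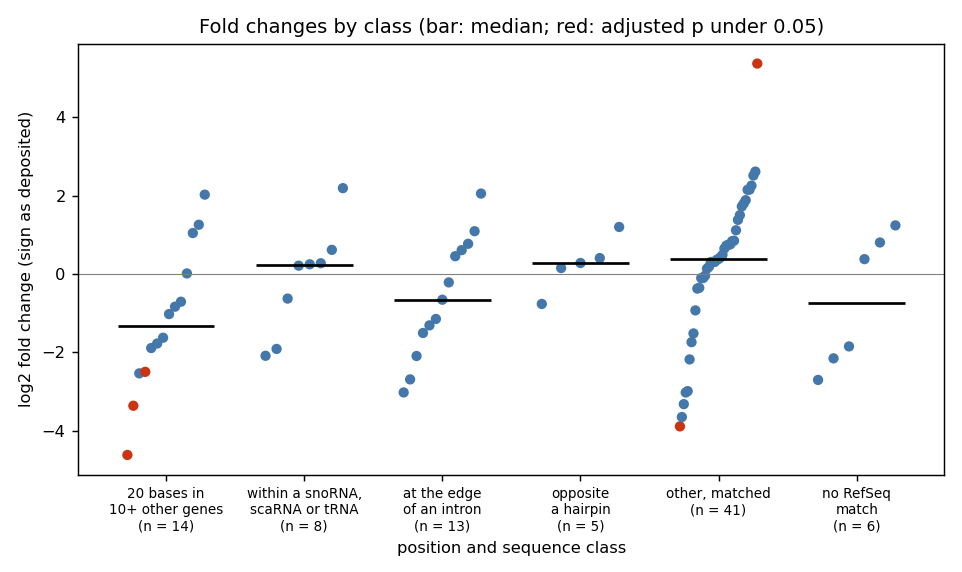
Log2 fold change (vertical axis, sign as deposited) of each of the 87 members, by class of position and sequence on the horizontal axis. Bars are medians and red points have an adjusted p under 0.05. The class that shares 20 bases with 10 or more other genes has a median of −1.33 and 3 of the 5 called members. The classes, with that minimum of 10 genes, were set after seeing the data.

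Of the 25, 14 share 20 bases with 10 or more other genes. In the authors' deposited table their median log2 fold change was −1.33, with 10 negative and 4 positive values (11 and 3 after subtracting 0.34). Called were 3 of the 14, all negative, against 5.57% of all rows (3.53% on the negative side). The minimum of 10 genes was set after seeing the data. Over all rows this class has 26 hairpins, which include the 14 members and so are not a separate set. Of the 26, 21 were negative and 7 called, all of them negative. The 14 were also more abundant than most members, their median level being 4.63 on the log2 scale and that of all members 2.10. Several of them are on the list of hairpins close to SINE repeats, and their likeness to a repeat was not measured here. Messenger RNAs often carry such short interspersed repeats, B1 and B2 in the mouse genome, in untranslated regions. Reads from such transcripts and reads from the hairpin cannot be told apart in the table, and the part of this in the fold changes was not tested.

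**Figure D4:**
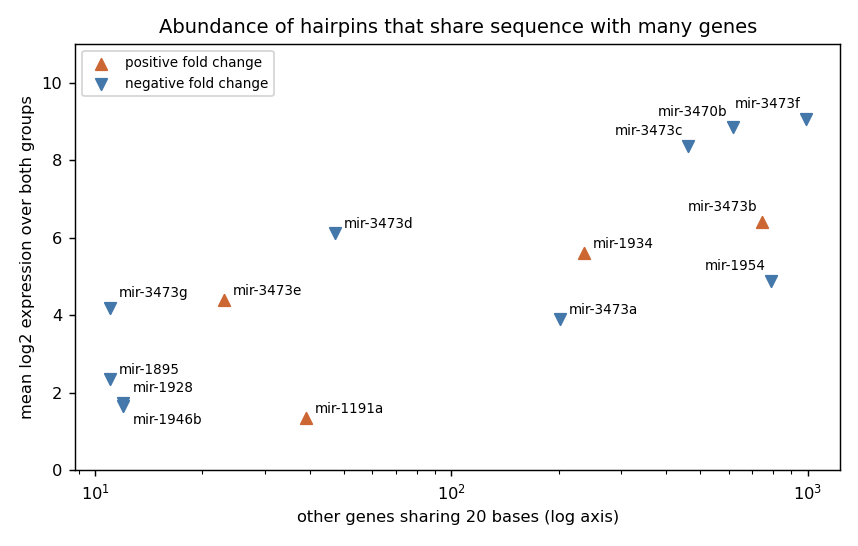
Mean log2 expression over both groups (vertical axis) of the 14 members that share 20 bases with 10 or more other genes, against the number of those genes (horizontal log axis). Upward triangles are positive and downward triangles negative fold changes. The members above a mean of 8, mir-3473c, mir-3470b and mir-3473f, share sequence with 463, 617 and 988 genes.

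Of the SINE list, 9 of its 10 hairpins were in the table. One of the 9, mir-3470b, was called (5.57% of all rows were), 7 were negative and 2 positive, and the median was −1.03 in the authors' deposited table. The 7 mir-3473 hairpins spread widely. In that table, mir-3473a, mir-3473d, mir-3473g, mir-3473f and mir-3473c had log2 fold changes of −2.54, −1.89, −1.03, −0.84 and −0.71. The positive ones were mir-3473b at 1.04 and mir-3473e at 2.02, and none of the 7 had an adjusted p under 0.05. These signs were the same after subtracting 0.34. Among the 7, mir-3473a alone had a 95% interval that held negative values only, from −4.22 to −0.86. The intervals of mir-3473b (−0.97 to 3.06) and mir-3473e (−0.34 to 4.39) held both signs. So did those of mir-3473d, mir-3473g, mir-3473f and mir-3473c, so their signs are not determined. The pair with positive values, mir-3473b and mir-3473e, is the pair that shares a seed, GGCUGGA, and 18 consecutive bases. Neither sign is determined, so no link between seed and sign can be read from this pair. By contrast miR-3473a, which has 16 consecutive bases of miR-3473b and another seed, was the most negative. On the other strand, miR-3473c has 12 bases complementary to miR-3473b, and miR-3473d has 8. The levels differed as well, from a mean log2 expression of 3.90 for mir-3473a to 9.06 for mir-3473f in the authors' deposited table. The hairpin of mir-3473f shares 20 bases with 988 other genes, that of mir-3473b with 747 and that of mir-3473g with 11.

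Members outside that list share sequence with other genes too. The hairpin mir-1195, whose mature sequence shares 20 bases with 6 genes, among them Lmna and Cd22, is named above. The hairpins mir-1954, in an intron of the endoglin gene Eng, and mir-1934 share 20 bases with 790 and 236 genes. In the authors' deposited table mir-1954 was at −1.78 (adjusted p = 0.387) and mir-1934 at 0.01 (adjusted p = 0.992), or −0.33 after subtracting 0.34. The 95% interval of mir-1934 as deposited ran from −1.65 to 1.68, so its sign is not determined.

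None of the 6 most abundant members was called. Of the highest abundance class, 8.89% of all rows and 2 of the 19 members were called, so 6 hairpins do not show a difference. The hairpin mir-3535 led with a mean log2 expression of 10.67, rank 51 of 539, and a log2 fold change of −2.09 (SE 1.24, 95% interval −4.70 to 0.52, adjusted p = 0.395) in the authors' deposited table. RefSeq places it in Gm24148, which GENCODE M21 annotates as a small nucleolar RNA (snoRNA) overlapping a transcript of the nucleolin gene Ncl, at chromosome 1, bases 86351981 to 86352127. Small nucleolar RNAs guide the chemical modification of ribosomal RNA. The hairpin is shown with its mature part in capitals, since the rest of the snoRNA surrounds it.
mir-3535 hairpin: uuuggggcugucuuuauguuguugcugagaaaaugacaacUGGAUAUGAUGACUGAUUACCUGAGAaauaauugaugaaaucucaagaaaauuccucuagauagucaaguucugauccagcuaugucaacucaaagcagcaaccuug
The second, mir-1198 in an intron of Gripap1 on the X chromosome, had a mean of 10.16 and a log2 fold change of 0.85 with an SE of 0.59. Its 95% interval, from −0.39 to 2.09 (adjusted p = 0.480), was among the narrowest of the members. For mir-1839, described as made outside the canonical Drosha route, the authors' deposited table gives a mean of 9.26 and a log2 fold change of 0.30 (adjusted p = 0.929), or −0.037 after subtracting 0.34.

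A set of 8 members, mir-3535 included, lies within a snoRNA, a scaRNA (a related guide RNA of Cajal bodies) or a transfer RNA gene. None of the 8 was called or had an unadjusted p under 0.05 in the authors' deposited table, and neither did any of the 11 such rows in all. With 5.57% and 17.6% of all rows passing, so few hairpins do not show a difference from the rest. They include mir-3069 in Scarna13 at −1.92 (adjusted p = 0.303) and mir-1291 in Snora34 at 2.19 (adjusted p = 0.395). The copies mir-3084-1 and mir-3084-2 have the same mature sequences and overlap Gm23658 and Snora19. They were at 0.61 and 0.21, and the second turned to −0.13 after subtracting 0.34. The copies mir-1843a and mir-1843b overlap Scarna3b and Scarna3a, and their 5p arms share 20 bases. They had nearly equal log2 fold changes of 0.27 and 0.25 in the authors' deposited table (−0.068 and −0.095 after subtracting 0.34), at means of 7.32 and 8.49. The hairpin mir-1983 overlaps the isoleucine transfer RNA gene n-TItat14, and the authors' deposited table puts it at −0.63 with a mean of 6.35 (adjusted p = 0.714).

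Of the members, 4 have a partner hairpin on the other strand of the same locus that is also in the table. The miRNA mir-24 belongs to the clusters with mir-23 and mir-27, and its copies have mir-3074-1 and mir-3074-2 opposite them. In the authors' deposited table mir-3074-1 had a mean log2 expression of 9.09 and mir-24-1 one of 9.12. For mir-3074-2 and mir-24-2 the means were 9.24 and 9.18. Log2 fold changes were close as well, at 0.28 against 0.38 for the first pair and 0.40 against 0.32 for the second (−0.062 for mir-3074-1 after subtracting 0.34). The mature miR-3074-5p and miR-24-3p shown above are complementary over 20 consecutive bases. In the authors' deposited table mir-3065 and mir-338 had means of 4.76 and 4.64 and log2 fold changes of 1.20 and 1.29. Their mature sequences are complementary over 21 bases. The last pair, mir-3071 and mir-136 of the imprinted Dlk1-Dio3 locus, had means of 0.85 and 1.04 and log2 fold changes of 0.15 and 0.49 (−0.19 for mir-3071 after subtracting 0.34). Each of these differences in fold change was smaller than the standard error of either row, of which the smallest was 0.78. The sources used here do not say whether reads were counted by strand. Without strand, reads of a hairpin and of its opposite partner cannot be told apart, so the values of these 4 members are uncertain.

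**Figure D5:**
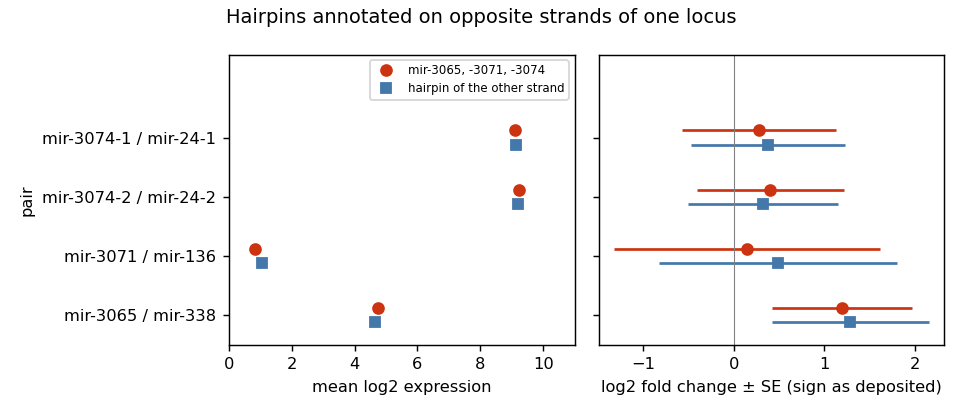
Mean log2 expression (left) and log2 fold change with its standard error (right, sign as deposited) of 4 members (red circles) and of the hairpin opposite each (blue squares) in the authors' deposited table. Within each pair the 2 mean log2 expression values lie within 0.20 of each other.

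Introns bound another set. Mirtrons are short introns that fold into a hairpin, so that splicing takes the place of Drosha. In GENCODE M21, 6 members fill an intron to within 10 bases at both ends. They are mir-1224, mir-1231, mir-1981, mir-1982, mir-3062 and mir-3102. A further 7 have a mature 3p arm that ends within 2 bases of an intron end. None of these 13 was called, against 5.57% of all rows, which is too few to read anything from 13 hairpins. Their median log2 fold change was −0.66 with 8 negative values in the authors' deposited table. Over all rows, 106 hairpins are of this kind, with a median of −1.11 and 2 calls. The hairpin mir-1224 fills an intron of 85 bases of Vwa5b2, at chromosome 16, bases 20604452 to 20604536, and is shown because both mature arms, in capitals, reach its ends.
mir-1224 hairpin: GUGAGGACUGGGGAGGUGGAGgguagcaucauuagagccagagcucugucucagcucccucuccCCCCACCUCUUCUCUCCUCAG
It had the lowest level of the members, and its value of −2.69 has a 95% interval from −5.30 to −0.09. The most abundant of the 6 was mir-1981, in Marc2, which the authors' deposited table puts at a mean of 7.67 and a log2 fold change of 1.09 (adjusted p = 0.473). Exonic members with a 3p arm at an intron end went both ways, from −3.03 for mir-3077 in Sap18 to 2.05 for mir-3076 in Tkt, the transketolase gene of the pentose phosphate pathway. Neither passed (adjusted p = 0.303 and 0.396).

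The list of hairpins described as made outside the canonical Drosha route had all of its 6 hairpins in the table. None was called (5.57% of all rows were, too few to read anything from 6 hairpins), 3 were positive and 3 negative, and the median was −0.16 in the authors' deposited table. Their mean log2 expression ran from −0.91 for mir-1224 to 9.26 for mir-1839. The hairpin mir-1982, in Oaz1, which encodes an inhibitor of polyamine synthesis, was at −1.31 (adjusted p = 0.715), and mir-3102 at 0.45 in the authors' deposited table.

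From a list of 12 miRNAs also registered in human under the same number, 5 rows were in the table. That list is not complete, since a wider one, chosen after seeing the data, had 10 rows in the table. None of the 5 was called, against 5.57% of all rows. Of them 2, mir-1224 and mir-1249, had an unadjusted p under 0.05, against 17.6%. With 5 rows these shares are not a result about the list. The copies of mir-3074 were positive and the others negative. The hairpin mir-1306, in a coding exon of Dgcr8, the gene of Drosha's partner, was at −0.11 (95% interval −1.81 to 1.60, adjusted p = 0.965) with a mean log2 expression of 4.62 in the authors' deposited table. With mir-1249 and mir-1224 the negative rows of this list had values of −0.11, −2.99 and −2.69. Of the 8 listed hairpins of the Dlk1-Dio3 locus mir-3071 alone was in the table.

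Related rows under one number were otherwise close in sign. The hairpins mir-1191a and mir-1191b, whose mature miRNAs share 12 bases, had log2 fold changes of 1.25 and 1.88 (adjusted p = 0.547 and 0.321) in the authors' deposited table. Of the 7 numbers with more than 1 row, mir-3473 alone held both signs as deposited, and after subtracting 0.34 also mir-3074 and mir-3084. The positive signs within mir-3473, those of mir-3473b and mir-3473e, are not determined. Hairpins with a seed in common had the same sign in some groups and not in others. The seed CCGGGCA of miR-1946b is also that of miR-8111, and the authors' deposited table has mir-1946b at −3.36 and mir-8111 at −1.25 (adjusted p = 0.629). The seed CACUGAG is common to miR-1947-3p, miR-3473d and miR-674-5p. Their hairpins mir-1947, mir-3473d and mir-674, for which the authors' deposited table gives no value per arm, were at 2.15, −1.89 and 0.84. The least abundant members beside mir-1224 were mir-1192 and mir-3095, at means of −0.79 and −0.75. Their log2 fold changes of 0.13 and 0.42 (−0.21 for mir-1192 after subtracting 0.34) had 95% intervals from −1.63 to 1.90 and from −2.21 to 3.05 in the authors' deposited table.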

How the data were processed

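The material was 1 table of the authors' comparison of 7 obese and 7 lean libraries. Per the submitters' processing notes, limma, edgeR, Novoalign, Trimmomatic 0.30, MultiQC and FastQC are among the tools, in roles not stated, and the columns are those of a limma table. For filters, scaling, miRNA annotation and build nothing is given in the sources used here. The authors deposited log2 fold changes and log2 means, as limma writes them. The t they deposited is a score. Each row has an unadjusted and an adjusted p-value from the authors. Column B, as deposited, is a natural log of odds. The table holds 0 columns of values per library, so depth is unknown and the authors' limma test was taken as it stands. A hairpin was called at an adjusted p under 0.05.

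From t and p, 17.9 degrees of freedom were recovered (scipy 1.17.1). Dividing each log2 fold change by its t gave the standard error, from which 95% intervals were built with those degrees of freedom. This step was tested on simulated data. Hairpin and mature sequences came from RefSeq GRCm38.p6, hosts and transcripts from GENCODE M21. Stretches of 20 bases of each hairpin were searched in transcripts of genes that are not miRNAs and do not overlap it. Transfer RNA genes of RefSeq were used for overlap only. The classes of position and sequence, with the minimum of 10 genes, were set after seeing the data. The alternatives were other thresholds, an expression minimum, recentred fold changes and 1 row per stem. Rows with shared sequence, or members listed as also registered in human, were left out in others.

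Named hairpins are those with an unadjusted p under 0.05, the 6 most and 3 least abundant, those sharing a number or seed with another member, and members of 4 lists. The following were picked with their values in view: mir-1231, mir-1291, mir-1934, mir-1938, mir-1954, mir-3060, mir-3062, mir-3065, mir-3066, mir-3069, mir-3076, mir-3077 and mir-3963, and hairpins that are not members. Members and lists were chosen with earlier results of these data known.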

Additional observations from a re-analysis of the deposited data

How the results depend on the processing

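The number of called members was 5 of 87 as reported, with 30 of 539 rows called in all. It was 8 at an adjusted p under 0.1, with 45 rows called in all. When rows that share 20 bases with other genes were left out it was 2 of 62, mir-1945 and mir-3968, with 19 rows called in all. It was 4 to 7 under the other alternatives. With rows under a mean log2 expression of 3.32 left out, 4 of 35 members were called, with 32 rows called in all. Of the 4, 3 were called before, since mir-1928 and mir-1946b lie below that minimum and mir-3473a passed (adjusted p = 0.0396). After subtracting 0.34, the median of the 180 most abundant rows, 7 members were called, with 33 rows called in all. The members added were mir-3473a (−2.88, adjusted p = 0.0362) and mir-1195 (−2.52, adjusted p = 0.0465). Under that setting 11 members changed sign, namely mir-1934 (−0.33), mir-1938 (−0.16), mir-3060 (−0.036), mir-3066 (−0.034), mir-3084-2 (−0.13), mir-3071 (−0.19), mir-1192 (−0.21), mir-1843a (−0.068), mir-1843b (−0.095), mir-3074-1 (−0.062) and mir-1839 (−0.037). The 2-fold minimum, subtracting the median of all rows (0.09), 1 row per stem and leaving out members listed as also registered in human each gave 5. The 2-fold minimum could not lower the count, since the called member nearest to it, mir-3470b, was at −2.50. Leaving out the listed members could not change it either, since none of them was called and the adjusted p-values were kept. Subtracting 0.09 turned mir-1934 to −0.080. A wider list of members also registered in human, chosen after seeing the data, gave 5 as well, since it held none of the called members. Under these settings 26 to 30 rows were called in all. No paired analysis was possible because values of single libraries are not part of the table, and the planned replicate block was not run. Depth is unknown, and none of the 180 least abundant rows was called.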
